A study of Mus musculus with 8 samples.

Results

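The Ubc13-Uev1a, TAK1-TAB and IKK complexes are the enzymes that act directly below the ubiquitin ligase TRAF6 on the way to the transcription factor NF-κB. Their 10 genes were taken from a list of complex members (Ube2n, Ube2v1, Map3k7, Tab1, Tab2, Tab3, Chuk, Ikbkb, Ikbkg and the IKK-related kinase gene Tbk1), and all 10 were found among the 24112 genes of the tables. Lineage-negative Sca1+ Kit+ (LSK) cells, a bone marrow fraction enriched for blood stem and early progenitor cells, had been purified from transplanted mice of the C57BL/6 strain. The 4 KO libraries came from Traf6-/-;Vav-Cre+ marrow and the 4 WT libraries from Vav-Cre+ marrow, so Cre, expressed from the Vav promoter and thus in blood cells, was present in both groups. Age is not given in the labels, the labels do not state how many host cells remained, and separate animals are not stated for the libraries, so p-values reflect a spread that may be technical. The question of the study, from its title, was whether basal NF-κB activation through TRAF6 maintains blood stem cells.

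UBC13 is a ubiquitin-conjugating enzyme that works with its catalytically inactive partner UEV1A and with TRAF6 to build ubiquitin chains that serve as scaffolds rather than as a signal for degradation. The adaptors TAB2 and TAB3 bind these chains and bring in the kinase TAK1, which its partner TAB1 activates. TAK1 then phosphorylates the IKK complex, which is made of the kinases IKKα and IKKβ and the ubiquitin-binding scaffold NEMO and which marks the NF-κB inhibitor IκB for degradation. TAK1 is known to be required for the survival of mouse blood stem cells. All of these steps are set by ubiquitin chains and phosphorylation, which RNA levels do not measure.

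The promoters of the members are shown for the members of highest and lowest RNA level, Ube2v1 and Tab3, to set the extremes of the list side by side. The table of RefSeq promoters (GRCm38.p6, 250 bases before to 50 after a gene's start) held 12 promoters of 8 members, without Tab1 and Ikbkb. The capitals mark CGGAAG, the core motif of ETS factors, and GGGCGG, the GC box, on either strand. The Ube2v1 promoter lies at chr2:167631956-167632255 on the minus strand and the Tab3 promoter at chrX:85573772-85574071 on the plus strand.
Ube2v1: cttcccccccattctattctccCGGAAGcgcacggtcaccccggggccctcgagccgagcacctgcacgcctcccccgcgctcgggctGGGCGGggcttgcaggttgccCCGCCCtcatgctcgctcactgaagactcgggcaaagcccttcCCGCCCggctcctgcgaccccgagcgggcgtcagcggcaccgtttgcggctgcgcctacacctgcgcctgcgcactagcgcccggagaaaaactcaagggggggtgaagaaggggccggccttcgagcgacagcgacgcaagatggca
Tab3: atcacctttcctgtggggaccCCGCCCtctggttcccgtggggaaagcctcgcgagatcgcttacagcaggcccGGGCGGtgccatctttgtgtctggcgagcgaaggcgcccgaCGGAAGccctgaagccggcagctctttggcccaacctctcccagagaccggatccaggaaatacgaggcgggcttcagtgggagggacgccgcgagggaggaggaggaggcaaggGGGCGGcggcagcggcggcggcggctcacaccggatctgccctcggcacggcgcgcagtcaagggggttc
Both are rich in G and C (70.3% for Ube2v1 and 69.0% for Tab3, against a median of 52.7% over 32851 promoters in the table), and each held 1 CGGAAG and 3 GGGCGG matches. Over the list, GGGCGG was found in 8 of 12 promoters, against 35.7% of all promoters in the table, and CGGAAG in 7 of 12, against 16.9%. The 12 promoters had a median of 65.6% G and C, against 52.7% of all, and the part of base composition in these counts was not tested. CCAAT was found in 3 of 12 promoters (37.4% of all), TATAAA in 0 of 12 (13.6% of all), and the 10-base NF-κB consensus in 1 of 12, that of Map3k7 (8.5% of all). The motifs were searched on both strands, a match is not a binding site, and these windows include alternative starts of Tab2 and Ikbkg. The promoters of the highest and the lowest member thus held the same numbers of both marked motifs.

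Values are RPKM (reads divided by gene length in kilobases and by library size), so levels of different genes can be set side by side. Estimated depth was 22.5 to 30.7 megareads in genes in KO and 19.3 to 24.8 megareads in WT. Lane 5 of the sequencer held KO3 and KO4, and lane 4 held the remaining 6 libraries. KO3 listed 175 of 3943 genes with a mean above 20 RPKM at 0, against 6 to 61 in the other 7 libraries, so a gene at 0 is written as listed at 0, which leaves its presence undecided. The gate markers were present in every library: Kit lay at 50.6 to 113 RPKM in KO and 73.8 to 83.1 in WT, and Ly6a, which encodes Sca1, at 6.53 to 10.9 in KO and 7.32 to 11.8 in WT. The summed level of 10 LSK markers was 307.8 to 509 RPKM in KO and 468 to 582 in WT. The summed level of 6 neutrophil and monocyte genes was 269.7 to 1235 RPKM in KO and 50.5 to 316 in WT, with Ltf below 0.1 RPKM in all libraries and 4 of the 6 at a mean of 1 RPKM or more. The summed level of 5 T cell markers was 3.05 to 23.3 RPKM in KO and 19.1 to 36.0 in WT. Only 1 of the 5 had a mean of 1 RPKM or more, so this sum says little about T cells. Cd3g was below 0.1 RPKM throughout, and Cd3e was listed at 0 in all libraries but KO2, at 0.416 RPKM. The part of the neutrophil and monocyte genes or of the T cell markers in the results below was not tested. The ranges of all these sums overlapped between groups, as did those for B cell, erythroid, megakaryocyte, and stromal and endothelial markers. Col1a1 was listed at 0 in all 8 libraries. Traf6, the deleted gene, was at 0.613, 0.818, 0 and 0.00721 RPKM in KO1 to KO4, against 14.9, 3.52, 9.40 and 7.10 RPKM in WT1 to WT4. The groups did not overlap (p = 0.0286 in a 2-sided exact permutation test, the smallest p this design allows), while limma's adjusted p of 0.341 did not pass 0.05.

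Loss of Traf6 went with no detected change in the RNA of the 3 complexes below it. In limma, 0 of the 10 members and 0 of 11276 genes tested (0%) passed an adjusted p of 0.05, and the adjusted p of the members lay between 0.695 for Tbk1 and 0.991 for Tab3. No member reached an unadjusted p of 0.05, against 847 genes (7.51%) over all genes tested. In no member did the KO values lie wholly on one side of the WT values, against 5.92% of all genes tested. Negative log2 differences (KO minus WT, of RPKM + 1) were found in 8 of 10 members, against 61.0% of all genes, with a median of -0.20 for the members and -0.14 for all genes. In bulk RNA, fewer cells of a type and less RNA per cell cannot be told apart. The 95% intervals of 6 members, Ube2n, Ube2v1, Tab2, Chuk, Ikbkg and Tbk1, lay within a 2-fold change of RPKM + 1 in either direction. That scale understates the change of low genes: with a pseudocount of 0.1 in place of 1, the interval of Ikbkg ran from -1.08 to 0.65, past a 2-fold lower level. Those of Map3k7, Tab1, Tab3 and Ikbkb reached past a 2-fold lower level, and that of Tab3 past a 2-fold higher level as well, so changes of that size were within the error of these libraries. The interval of Traf6 itself ran from -3.92 to -1.58, and those of 9 members lay wholly above it; that of Tab1 did not.

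**Figure D1:**
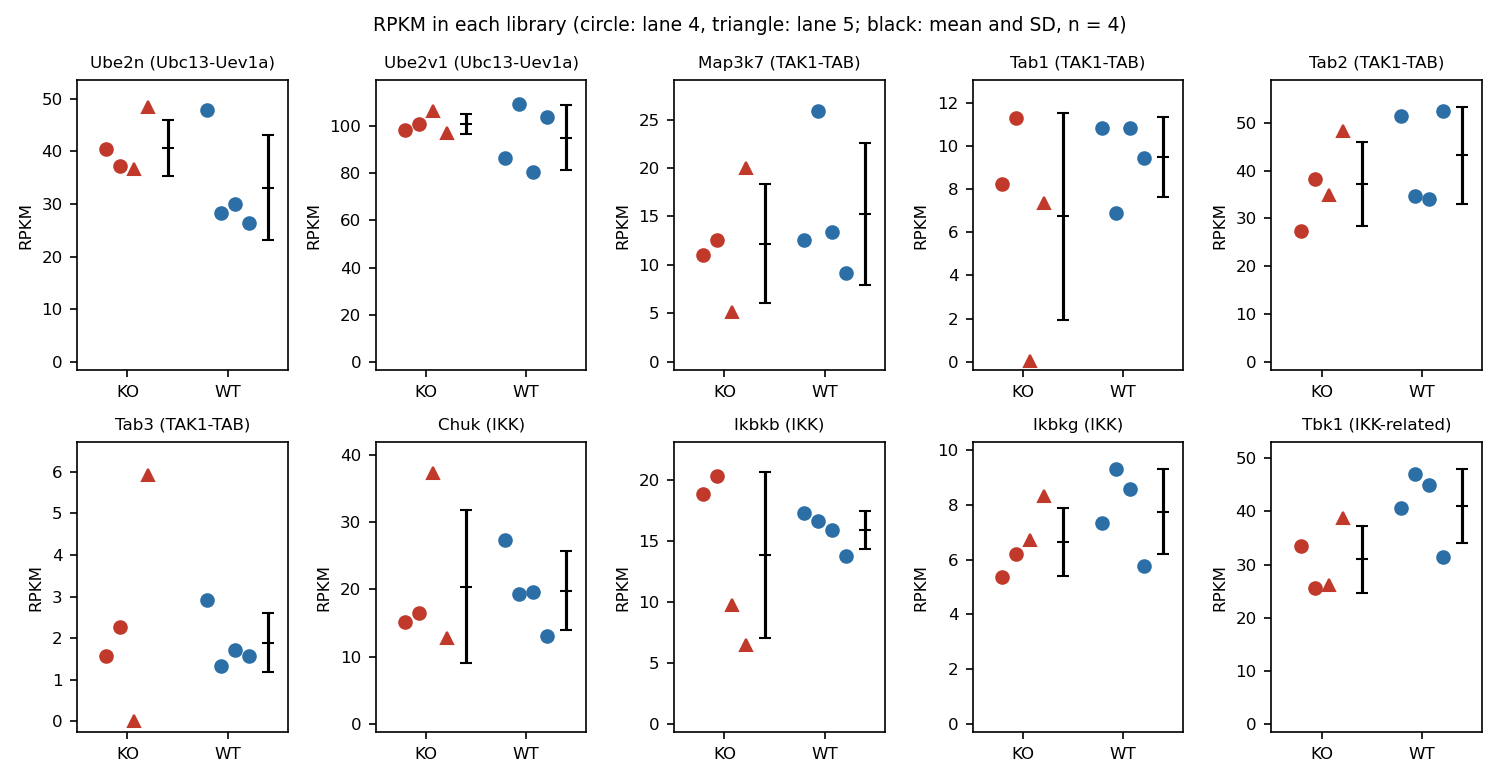
RPKM of the 10 members in the 4 KO libraries (red, left) and the 4 WT libraries (blue, right), with lane 5 libraries as triangles and the group mean and SD (n = 4) in black, left out for Tab3 in KO, where KO3 is listed at 0. KO and WT values overlap in every panel, and the KO values of Ikbkb fall on both sides of its WT values.

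Of the ubiquitin-conjugating pair, Ube2v1 was the most abundant member of the list and the one with the smallest spread within groups. Ube2v1, which encodes the UEV1A partner, was at 98.5, 101, 107 and 97.3 RPKM in KO1 to KO4, against 86.7, 109, 80.6 and 104 RPKM in WT1 to WT4. The KO values sat inside the range of the WT values. Here and below, ± gives the SE for a log2 difference and the SD for a mean RPKM, with n = 4 per group. The log2 difference was 0.09 ± 0.16 (95% interval -0.27 to 0.46, limma adjusted p = 0.883). Its SD within groups on the log2 scale, 0.152, was small for its level: only 5.2% of 691 genes with a mean within 1.5-fold had a smaller one. Ube2n, which encodes UBC13 itself, was at 40.4, 37.2, 36.7 and 48.3 RPKM in KO1 to KO4, against 47.9, 28.2, 30.0 and 26.4 RPKM in WT1 to WT4. WT1 stood apart from the other 3 WT libraries, all of which lay below every KO value. The log2 difference of 0.32 ± 0.23 (interval -0.20 to 0.84) did not pass (limma adjusted p = 0.735). Without WT1 it was 0.51, with an interval of 0.02 to 0.99 that excludes 0, and did not pass either (limma adjusted p = 0.889). Ube2v1 exceeded Ube2n in all 8 libraries, by 2.44-, 2.72-, 2.90- and 2.01-fold in KO1 to KO4 and by 1.81-, 3.88-, 2.69- and 3.93-fold in WT1 to WT4. Ube2v2, a close relative of Ube2v1 that pairs with UBC13 in DNA repair, was at 4.53 to 10.6 RPKM in KO and 0.203 to 7.26 in WT, below Ube2v1 in every library. Exons of Ube2v1 overlap a same-strand gene, Gm20431, and an opposite-strand one, Gm11476, in the GENCODE annotation, so reads there may be split or shared between them.

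In the TAK1 complex, the kinase and its adaptors differed widely in level and in spread. Map3k7, which encodes TAK1, was at 11.0, 12.6, 5.17 and 20.0 RPKM in KO1 to KO4, against 12.5, 25.9, 13.4 and 9.21 RPKM in WT1 to WT4. Each group spanned a wide range, with coefficients of variation of 50.1% in KO and 48.0% in WT. The log2 difference was -0.34 ± 0.44 (interval -1.31 to 0.64, adjusted p = 0.836), and it was -0.01 without KO3 and -0.60 without KO4. Tab2 was at 27.3, 38.2, 34.8 and 48.4 RPKM in KO1 to KO4, against 51.5, 34.8, 34.0 and 52.5 RPKM in WT1 to WT4. The groups overlapped over most of their range (-0.21 ± 0.25, interval -0.76 to 0.34, adjusted p = 0.817), and Tab2 was the most abundant adaptor of TAK1 in each of the 8 libraries.

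Tab1, whose product activates TAK1, was at 8.26, 11.3, 0.0151 and 7.36 RPKM in KO1 to KO4, against 10.9, 6.89, 10.8 and 9.44 RPKM in WT1 to WT4. The low mean of KO came from KO3, where the value equals about 1.01 reads at the estimated depth, while the other KO libraries lay in or near the WT range. The log2 difference of -0.89 ± 0.73 was the largest of the list (adjusted p = 0.754), and it was -0.08 without KO3 and 0.04 among lane 4 libraries. Tab3, the paralog of Tab2, was at 1.57, 2.28, 0 and 5.92 RPKM in KO1 to KO4, against 2.93, 1.34, 1.71 and 1.58 RPKM in WT1 to WT4. KO held both the highest value and the one listed at 0, and the log2 difference of -0.03 ± 0.61 had the second widest interval of the list, -1.39 to 1.32. On the log2(RPKM + 1) scale, changes of genes as low as Tab3 are understated. Of the summed RPKM of the 3 adaptors, Tab2 made up 73.5%, 73.8%, 99.96% and 78.5% in KO1 to KO4 and 78.9%, 80.9%, 73.1% and 82.7% in WT1 to WT4. Tab3 made up 0% to 9.60% in KO and 2.48% to 4.49% in WT. Tab2 RNA thus outweighed that of its paralog Tab3 in all libraries of both genotypes.

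**Figure D2:**
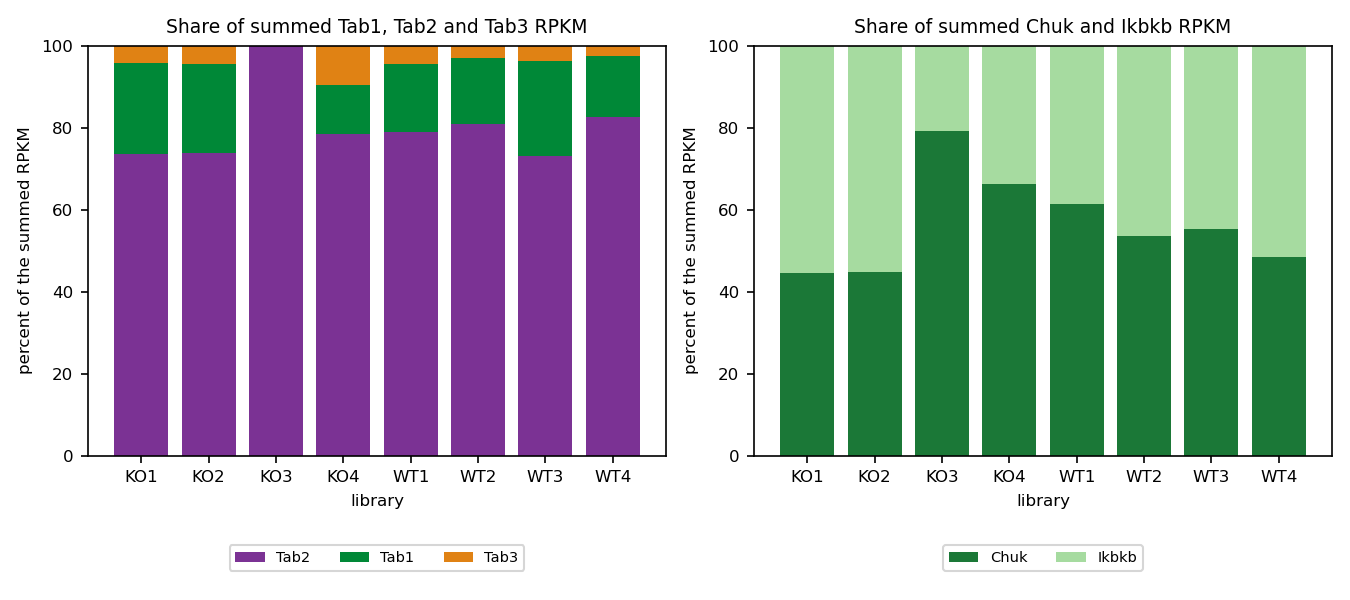
Left, shares of Tab2, Tab1 and Tab3 in their summed RPKM, and right, shares of Chuk and Ikbkb in theirs, as percent in each KO library and then each WT library. Tab2 makes up 73.1% or more of the adaptors in every library, and the Chuk share ranges from 44.4% to 79.2% in KO and from 48.5% to 61.3% in WT.

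Of the IKK genes, Ikbkb had KO values on both sides of all its WT values, split by lane. Ikbkb, which encodes IKKβ, the main kinase of canonical NF-κB signalling, was at 18.9, 20.4, 9.79 and 6.45 RPKM in KO1 to KO4, against 17.3, 16.6, 15.9 and 13.8 RPKM in WT1 to WT4. The WT values were close together (coefficient of variation 9.59%), and the KO values were not (49.1%). KO1 and KO2, from lane 4, lay above all 4 WT libraries, and KO3 and KO4, from lane 5, lay below all of them. The mean was 19.6 RPKM in the lane 4 KO libraries and 8.12 in the lane 5 KO libraries, against 15.9 ± 1.52 in WT (SD, n = 4). Lane 5 held no WT library, so lane and genotype cannot be told apart there. The log2 difference was -0.31 ± 0.37 over all libraries (interval -1.12 to 0.51, adjusted p = 0.818) and 0.29 among lane 4 libraries (adjusted p = 0.673). A split of the KO libraries by lane was not particular to Ikbkb. KO values of Tab1 were also lower in both lane 5 libraries than in both lane 4 ones, and those of Ikbkg were higher. The share of all genes with such a split was not counted.

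Chuk, which encodes IKKα, a kinase that also drives the alternative NF-κB pathway, was at 15.1, 16.5, 37.3 and 12.7 RPKM in KO1 to KO4, against 27.4, 19.2, 19.6 and 13.0 RPKM in WT1 to WT4. KO3 was the highest of all 8 libraries and KO4 the lowest. The group means were nearly equal, 20.4 ± 11.4 RPKM in KO and 19.8 ± 5.89 in WT (log2 difference -0.04 ± 0.36, adjusted p = 0.978), and the difference was -0.36 without KO3. Chuk stood to Ikbkb at 0.799- and 0.810-fold in KO1 and KO2 and at 3.81- and 1.97-fold in KO3 and KO4, against 1.58-, 1.16-, 1.24- and 0.943-fold in WT1 to WT4. The ratio was below every WT library in lane 4 KO libraries and above every one in lane 5 KO libraries, a description of these libraries with no test.

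Ikbkg, which encodes the scaffold NEMO, was at 5.37, 6.21, 6.70 and 8.32 RPKM in KO1 to KO4, against 7.32, 9.33, 8.58 and 5.78 RPKM in WT1 to WT4. Its values stayed within narrow limits in both groups: the SD within groups, 0.249 on the log2 scale, was undercut by only 2.8% of 2641 genes of like level. The log2 difference was -0.19 ± 0.35 (interval -0.98 to 0.60, adjusted p = 0.895). Exons of Ikbkg overlap those of G6pdx on the opposite strand in GENCODE. G6pdx was at 44.5 ± 11.7 RPKM in KO and 24.9 ± 7.21 in WT (log2 difference 0.81 ± 0.28, limma adjusted p = 0.626), and, since counting by strand is not stated, reads in the overlap cannot be assigned to either gene.

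Tbk1 encodes an IKK-related kinase of innate immune signalling that phosphorylates interferon regulatory factors. It was at 33.6, 25.6, 26.1 and 38.7 RPKM in KO1 to KO4, against 40.6, 47.1, 44.9 and 31.4 RPKM in WT1 to WT4. Of the members it had the smallest p: 3 of 4 WT libraries lay above every KO library, while WT4 lay below KO1 and KO4. The mean was 31.0 ± 6.30 RPKM in KO and 41.0 ± 6.94 in WT (log2 difference -0.40 ± 0.22, interval -0.89 to 0.10, adjusted p = 0.695; 2-sided exact permutation p = 0.114). Ikbke, its closest relative, was lower than Tbk1 in every library, at 8.13, 3.75, 0.0138 and 9.49 RPKM in KO1 to KO4, against 4.73, 6.43, 7.58 and 3.30 RPKM in WT1 to WT4.

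**Figure D3:**
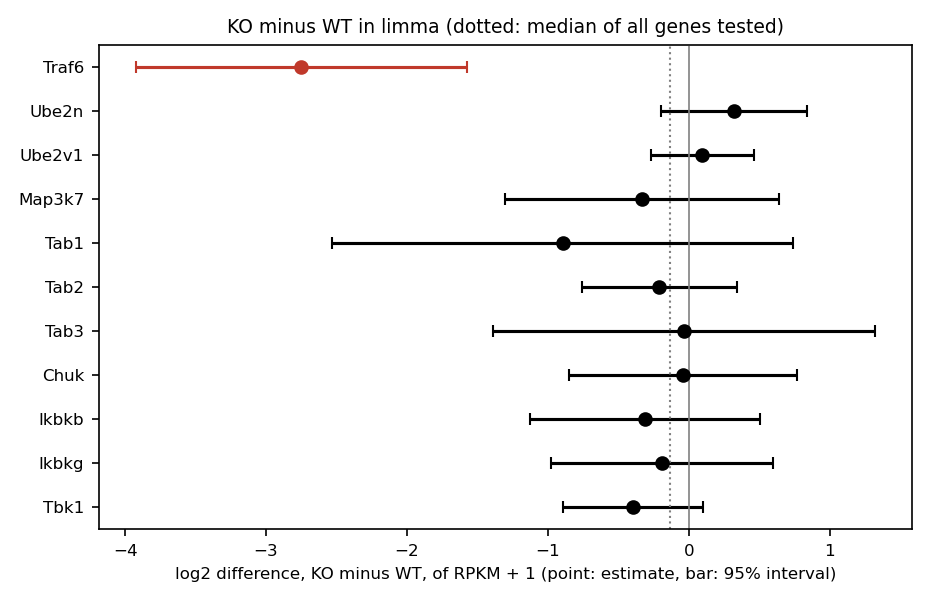
Log2 differences (KO minus WT, of RPKM + 1) of Traf6 in red and the 10 members in black, with 95% intervals from limma; the dotted line is the median of all genes tested, -0.14. The intervals of all 10 members include 0, and that of Traf6 runs from -3.92 to -1.58.

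The order of the mean levels was much the same in both genotypes. Ube2v1 led in KO with 101 ± 4.12 RPKM and in WT with 95.1 ± 13.7, apart from every other member in both groups. Ube2n, Tab2 and Tbk1 followed at means of 31.0 to 40.7 RPKM in KO and 33.1 to 43.2 in WT, and neighbours in this order overlapped. Chuk, Ikbkb and Map3k7 lay at means of 12.2 to 20.4 RPKM in KO and 15.3 to 19.8 in WT and overlapped as well. In both groups Chuk also overlapped its next higher neighbour, and Map3k7 overlapped Tab1 below it. Tab1 and Ikbkg lay at 6.73 and 6.65 RPKM in KO and 9.50 and 7.75 in WT, and Tab3 was lowest in every library, at 0 (listed at 0) to 5.92 RPKM in KO and 1.34 to 2.93 in WT. By mean RPKM over all libraries, the members ranged from percentile 7.5 of the genes tested for Tab3 to percentile 93.4 for Ube2v1. The kinase genes Chuk and Ikbkb lay at percentiles 65.3 and 55.6 and the scaffold gene Ikbkg at percentile 33.1, around the median of 12.5 RPKM of the genes tested.

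Ratios within a library do not depend on how that library was scaled. Tbk1 exceeded Ikbkb in all 8 libraries, by 1.78-, 1.26-, 2.67- and 6.01-fold in KO1 to KO4, against 2.35-, 2.83-, 2.83- and 2.28-fold in WT1 to WT4. In WT this ratio varied little (log2 SD 0.169), while in KO it varied more (log2 SD 0.971), with KO1 and KO2 below all WT values, KO3 among them and KO4 above. Ikbkg stood to Ikbkb at 0.284-, 0.305-, 0.684- and 1.29-fold in KO1 to KO4, against 0.424-, 0.560-, 0.541- and 0.420-fold in WT1 to WT4. For each of the 3 ratios taken to Ikbkb, which thus share its values, KO1 and KO2 lay below all WT libraries. The libraries KO3 and KO4 lay above all WT libraries for Chuk and Ikbkg. Tab2 stood to Map3k7 at 1.35- to 6.74-fold over all libraries, with no order by genotype. Tab1 stood to Map3k7 at 0.00292-fold in KO3, at 0.368- to 0.899-fold in the other 3 KO libraries and at 0.266- to 1.03-fold in WT. Tab3 stood to Tab2 at 0.0576-, 0.0597- and 0.122-fold in KO1, KO2 and KO4 and at 0.030- to 0.0569-fold in WT; no ratio was formed for KO3, where Tab3 was listed at 0.

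**Figure D4:**
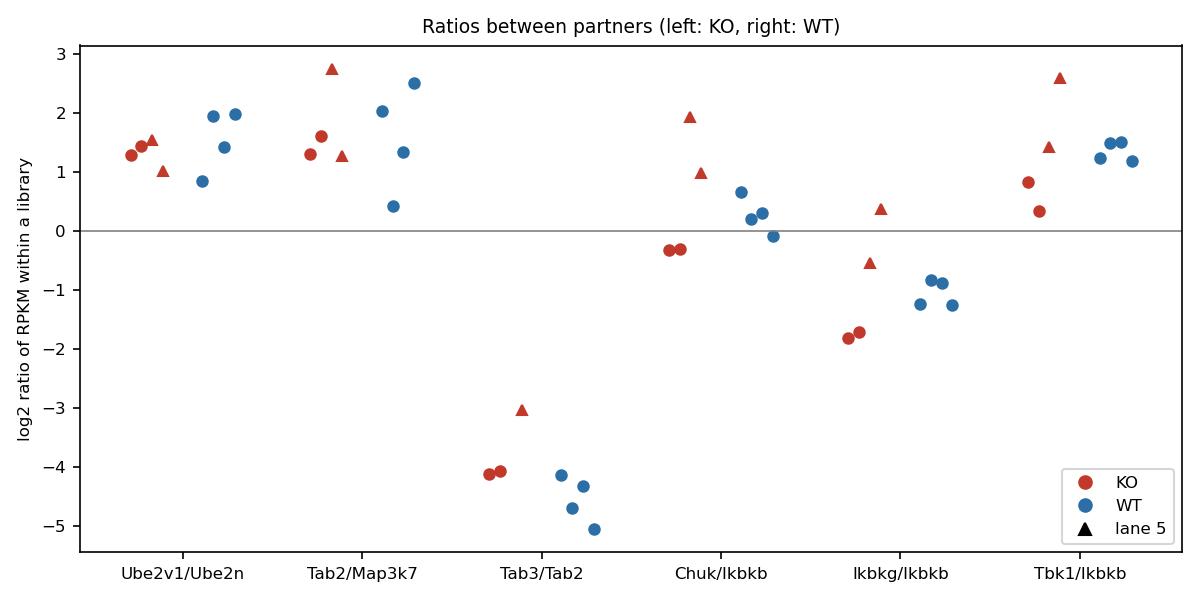
Log2 ratios of RPKM between partners within a library, KO (red) left of WT (blue), with lane 5 libraries as triangles; the ratio of Tab1 to Map3k7, where KO3 lies at -8.42, is left out for scale. Ratios to Ikbkb are close together in WT and spread to both sides of WT in KO.

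Around the complexes, 11 lists of pathway genes held 76 genes, all of them tested. Of these, 0 rose and 0 fell past an adjusted p of 0.05; 7 (9.21%) had an unadjusted p under 0.05, against 7.51% of all genes tested, and their median log2 difference was -0.15, against -0.14. The same 7 genes, the deleted Traf6 among them, were those without overlap between groups (9.21%, against 5.92% of all genes tested). Of the MAP kinase cascade below TAK1, 0 of 8 genes passed. Mapkapk2, the kinase downstream of p38, was at 243, 171, 194 and 142 RPKM in KO1 to KO4, against 104, 122, 115 and 112 RPKM in WT1 to WT4. Every KO library lay above every WT library (log2 difference 0.70 ± 0.19, adjusted p = 0.451), while Mapk14, which encodes p38α, overlapped at 85.1 ± 21.0 RPKM in KO and 93.6 ± 9.01 in WT. Mapk8, which encodes the kinase JNK1, was at 6.33, 6.58, 4.77 and 3.52 RPKM in KO1 to KO4, against 10.4, 10.9, 13.2 and 9.46 RPKM in WT1 to WT4 (-0.95 ± 0.35, adjusted p = 0.632). Mapk8 was named after its values were seen, as were Tgfbr2, Map3k8 and Tnfaip3 below.

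Of the receptor-side activators of TAK1, 0 of 8 passed. Tgfbr2, a receptor subunit for TGF-β, which also signals through TAK1, was at 8.13, 14.7, 4.55 and 12.0 RPKM in KO1 to KO4, against 24.3, 27.5, 22.4 and 21.1 RPKM in WT1 to WT4. The groups did not overlap, and the log2 difference of -1.29 ± 0.34 had an adjusted p of 0.450. The adaptor kinase gene Ripk1 was at 26.4 ± 6.64 RPKM (SD, n = 4 per group) in KO and 16.9 ± 4.46 in WT (limma adjusted p = 0.665). Birc2, a ubiquitin ligase gene, was at 20.8 ± 14.1 RPKM in KO and 19.1 ± 7.49 in WT. Of the brakes of TAK1 and IKK, 0 of 10 passed and 8 had negative differences (80.0%, against 72.4% over all lists and 61.0% of all genes tested). Tax1bp1, an adaptor of the ubiquitin-editing enzyme A20, was at 72.3, 76.0, 78.1 and 99.6 RPKM in KO1 to KO4, against 118, 108, 120 and 102 RPKM in WT1 to WT4, without overlap (-0.46 ± 0.17, adjusted p = 0.627). Tnfaip3, which encodes A20, had a log2 difference of -1.83 ± 0.45 (adjusted p = 0.441), and the phosphatase gene Ppp2ca, the most abundant of this list, was at 161 ± 23.7 RPKM in KO and 172 ± 12.7 in WT.

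In the remaining lists no gene other than Traf6 and Map3k8 reached an unadjusted p of 0.05. Map3k8, another MAP3 kinase, had a log2 difference of -1.60 ± 0.47 (adjusted p = 0.515), in a list of 7 in which Map3k11 had 0.01 ± 0.31 and Map3k1 had -0.14 ± 0.39. Map3k8 was low in every library, at 0.403, 1.11, 0 and 0 RPKM in KO1 to KO4, against 3.15 ± 1.32 in WT. It was listed at 0 in the lane 5 libraries KO3 and KO4, which leaves its presence there undecided. Of 8 genes upstream, the ubiquitin-binding scaffold gene Sqstm1 was at 39.6 ± 22.5 RPKM in KO and 32.7 ± 4.81 in WT, and the receptor-associated kinase gene Irak1 at 27.9 ± 7.23 in KO and 37.9 ± 6.80 in WT. Of 5 genes of linear ubiquitin chains, Rbck1 was at 45.1 ± 11.3 RPKM in KO and 36.8 ± 3.56 in WT, and Otulin at 34.5 ± 11.0 in KO and 35.3 ± 9.98 in WT. Of 7 partners of TBK1 and IKK, Azi2 was at 9.78 ± 3.18 RPKM in KO and 10.7 ± 2.38 in WT, and Tank was at 16.8, 9.80, 0 and 4.64 RPKM in KO1 to KO4, against 7.32 to 10.7 in WT. Of 5 chaperone genes of kinases, Hsp90aa1 was at 2091 ± 459 RPKM in KO and 1705 ± 596 in WT, and Hsp90ab1 at 1240 ± 285 in KO and 1365 ± 23.7 in WT. Of 10 NF-κB and IκB genes, Nfkb1 was at 51.4 ± 15.1 RPKM in KO and 51.5 ± 6.03 in WT, and Nfkbia at 34.2 ± 8.76 in KO and 60.6 ± 38.6 in WT. Of 5 deubiquitinase genes, Otub1 was at 41.7 ± 19.6 RPKM in KO and 42.6 ± 12.9 in WT, and Usp4 at 39.8 ± 20.4 in KO and 41.7 ± 6.97 in WT. Of 3 kinase genes related to AMPK or acted on by TAK1, Stk11 was at 33.4 ± 8.21 RPKM in KO and 26.7 ± 6.05 in WT, and Prkaa1 at 10.8 ± 1.32 in KO and 12.8 ± 3.50 in WT. None of these passed the adjusted threshold.

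**Figure D5:**
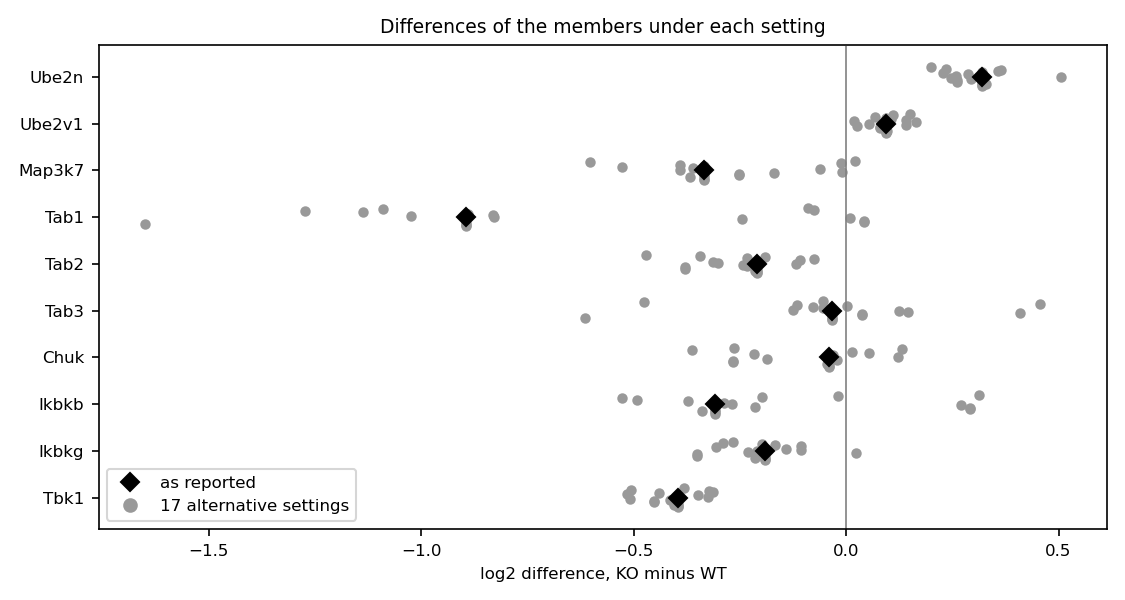
Log2 differences (KO minus WT) of each member as reported (black diamonds) and under 17 alternative settings (grey points). Ube2n and Ube2v1 stay above 0, Tab2 and Tbk1 stay below 0, and the other 6 members cross 0 in at least 1 setting.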

How the data were processed

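Poly(A) RNA of LSK cells was measured in 8 libraries, grouped by title as KO or WT. The deposited values are RPKM made by the authors, 1 per Entrez gene and library; the unit was inferred, since value times transcript length summed to 1.14 to 1.17 M (M, mega) in each library. The submitters' processing notes name TopHat, edgeR and the mouse build mm9; versions, the read counter, the annotation and strand handling were not given in the sources used here. Of 24112 IDs, 24029 were matched to symbols in a GRCm38.p6 table, used for names only.

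Depth was estimated from values up to 0.2 RPKM in genes with a lone transcript; 50.0% to 59.6% of 46 to 92 values per library were whole reads within 0.03, so whole reads were not recovered and no count test was run. Testing covered the 11276 genes that reached 1 RPKM in 4 or more libraries, as log2(RPKM + 1), with limma 3.58.1 in R 4.3.3 (eBayes, trend and robust), with Benjamini-Hochberg adjustment over all. The exact permutation test used all 70 assignments. No 2 libraries of a group shared more than 6.86% of tested values.

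The members and lists were chosen with earlier results of these data known. Besides members and Traf6, the 2 most abundant genes of each list, or those past the threshold, were named; Ube2v2, Ikbke and G6pdx were named as relatives or neighbours. Alternatives were the filter, the pseudocount (0.1), the replicate number as a block, lane, quantile normalization, library weights and left-out libraries.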

Additional observations from a re-analysis of the deposited data

Results flagged for a closer look

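Of 66 groups of 4 libraries examined (members, Traf6 and the named pathway genes), 7 held a library whose gap to the nearest other one exceeded Dixon's 95% critical share of the group's range; chance flags about 1 in 20 groups. Among the members, Chuk in KO3 was at 37.3 RPKM, against 12.7 to 16.5 in the other KO libraries, and Ube2n in WT1 was at 47.9 RPKM, against 26.4 to 30.0 in the other WT libraries. KO3 also stood apart for Birc2, at 41.8 RPKM against 12.9 to 15.0, and for Irak1, at 17.2 RPKM against 30.4 to 33.1. In WT, Sqstm1 was at 25.5 RPKM in WT4 against 34.4 to 35.9, Azi2 at 7.18 in WT2 against 11.9 to 12.0, and Prkaa1 at 18.0 in WT1 against 10.3 to 11.6.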

How the results depend on the processing

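No member passed an adjusted p of 0.05 under any of the 17 alternatives; the smallest was 0.152, for Tbk1 with library weights, where its log2 difference was -0.51. Of 170 values of members under alternatives, 150 kept their sign. Ube2n, Ube2v1, Tab2 and Tbk1 kept it throughout. The changed filters and the replicate block could not move an estimate, and the lane covariate gave the same estimates as the lane 4 libraries alone. The count thus overstates how many settings could have turned a sign. Tab1 became 0.042 with lane as a covariate or in lane 4 libraries only and 0.0085 with library weights. Tab3 became 0.038 with lane as a covariate or in lane 4 libraries only, 0.41 with quantile normalization and 0.15 with library weights, and lay between -0.47 (without KO4) and 0.46 (without KO3) when 1 library was left out. Ikbkb became 0.29 with lane as a covariate or in lane 4 libraries only, 0.27 with library weights and 0.31 without WT2, KO3 and KO4; Map3k7 became 0.022 without these 3, and Ikbkg 0.024 with quantile normalization. Chuk lay between -0.36 (without KO3) and 0.13 (without KO4) when 1 library was left out, and Tab1 between -1.27 (without KO2) and -0.08 (without KO3). The cause of these turns was not tested. The count of genes called over all genes was 0, and became 2 in lane 4 libraries only, 164 with library weights and 3 without WT2, KO3 and KO4, and lay between 0 and 2 when 1 library was left out (2 without KO3, 0 without any other); no other alternative moved it. Traf6 stayed negative throughout and passed only with library weights (-2.52, adjusted p = 0.00785). Library weights gave KO2 6.50 and KO3 0.137. Quantile normalization moved the median log2 difference of all genes, -0.14 in the values as reported, to 0.00.

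The replicate numbers showed no sign of pairing. Deviations of libraries with the same number correlated at -0.053, -0.080, -0.038 and -0.064, and no library correlated best with its own number. Correlations this weak cannot exclude a pairing. With the replicate block the count of genes called was 0, and no member passed; the 95% intervals of Ikbkg and Tbk1 then reached -1.26 and -1.05. Those of Tab2, Chuk, Ikbkg and Tbk1 reached past a 2-fold change in at least 1 of the 17 alternatives, and those of Ube2n and Ube2v1 in none of them. Depth is known only approximately, so no counting intervals are given; Tab3 rests on 164 to 953 approximate reads where listed above 0, and Tab1 in KO3 on about 1.01.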
